A study of Arabidopsis thaliana with 12 samples.

Results

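The 10 genes described here encode cell division regulators of Arabidopsis thaliana, out of 33602 genes in the count table. Earlier results of these data were known at their choice, so their counts beside shares of all genes are a description. They were chosen by name, and the count table knows them by locus identifier, which is used below wherever a gene has been introduced: the B1-type cyclins *CYCB1;1* (AT4G37490), *CYCB1;2* (AT5G06150), *CYCB1;3* (AT3G11520) and *CYCB1;4* (AT2G26760), the cyclin-dependent kinases *CDKB1;1* (AT3G54180), *CDKB2;1* (AT1G76540) and *CDKB2;2* (AT1G20930), the D-type cyclin *CYCD3;1* (AT4G34160), the kinase inhibitor *KRP1* (AT2G23430) and the cytokinesis gene *KNOLLE* (AT1G08560). RNA was sequenced from whole 7-day-old seedlings of the Col-0 wild type and of *nup85-1*, in which a T-DNA disrupts *NUP85*, the gene of a nuclear pore protein. Seedlings of each genotype were placed for 3 h in liquid medium without hormone (mock) or with 50 μM abscisic acid (ABA), and 3 libraries were made for each of the 4 groups. The labels do not say whether the 3 libraries of a group came from separate cultures, so p-values measure only the spread between these libraries, which may be technical. Only 1 insertion line was sequenced, so its effect cannot be told apart from other differences between that line and Col-0.

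Plant cells enter mitosis when B1-type cyclins, which are made shortly before division and destroyed in anaphase, bind and activate cyclin-dependent kinases. The CDKB kinases are found only in plants and are themselves transcribed mainly from S phase to mitosis, and *CDKB2* genes more narrowly than *CDKB1* genes. The D3-type cyclin promotes entry into the cell cycle in response to cytokinin and sugar, KRP1 (also called ICK1) binds and inhibits kinase complexes, and KNOLLE is the syntaxin that fuses vesicles at the growing cell plate. ABA is the hormone of drought and salt stress, and it restrains seedling growth. In a whole seedling, dividing cells are a small share of the tissue, so fewer dividing cells and less RNA per dividing cell cannot be told apart in these libraries.

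Many genes that are expressed in G2 and M phase carry the mitosis-specific activator (MSA) element, which MYB3R transcription factors bind and whose core is AACGG. The bases upstream of 5 genes are shown because the B1-type cyclins form the main group below and because *KRP1* held the most cores. They are the 300 bases before each annotated gene start in RefSeq's TAIR10.1 assembly, 5′ to 3′ on the gene's own strand, and capitals mark AACGG or its reverse complement CCGTT. The windows lie at chr4:17624309-17624608 on the minus strand for AT4G37490, chr5:1861704-1862003 on the minus strand for AT5G06150, chr3:3627274-3627573 on the minus strand for AT3G11520, chr2:11400818-11401117 on the plus strand for AT2G26760 and chr2:9978091-9978390 on the minus strand for *KRP1*.
AT4G37490: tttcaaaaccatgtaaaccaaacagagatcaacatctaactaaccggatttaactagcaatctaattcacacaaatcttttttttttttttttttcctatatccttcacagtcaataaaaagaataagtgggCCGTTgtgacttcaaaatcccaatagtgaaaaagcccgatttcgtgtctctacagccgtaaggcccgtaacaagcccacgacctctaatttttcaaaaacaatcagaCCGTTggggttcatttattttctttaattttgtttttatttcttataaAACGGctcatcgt
AT5G06150: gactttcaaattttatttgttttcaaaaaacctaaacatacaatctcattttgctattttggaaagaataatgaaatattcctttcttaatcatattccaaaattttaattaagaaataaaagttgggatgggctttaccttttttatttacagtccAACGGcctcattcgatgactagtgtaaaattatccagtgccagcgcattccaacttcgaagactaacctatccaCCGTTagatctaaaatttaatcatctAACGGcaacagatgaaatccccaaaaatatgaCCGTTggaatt
AT3G11520: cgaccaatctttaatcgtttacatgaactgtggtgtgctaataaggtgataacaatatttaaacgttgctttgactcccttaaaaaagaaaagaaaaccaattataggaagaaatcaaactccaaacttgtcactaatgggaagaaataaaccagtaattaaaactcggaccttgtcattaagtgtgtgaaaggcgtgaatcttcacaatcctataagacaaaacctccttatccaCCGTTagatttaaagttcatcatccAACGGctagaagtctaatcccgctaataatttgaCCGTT
AT2G26760: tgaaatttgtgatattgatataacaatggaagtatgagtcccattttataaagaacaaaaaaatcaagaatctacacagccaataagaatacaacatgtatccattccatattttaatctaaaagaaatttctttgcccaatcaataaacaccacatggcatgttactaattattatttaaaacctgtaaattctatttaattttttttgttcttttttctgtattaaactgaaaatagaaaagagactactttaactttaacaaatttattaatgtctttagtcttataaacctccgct
KRP1: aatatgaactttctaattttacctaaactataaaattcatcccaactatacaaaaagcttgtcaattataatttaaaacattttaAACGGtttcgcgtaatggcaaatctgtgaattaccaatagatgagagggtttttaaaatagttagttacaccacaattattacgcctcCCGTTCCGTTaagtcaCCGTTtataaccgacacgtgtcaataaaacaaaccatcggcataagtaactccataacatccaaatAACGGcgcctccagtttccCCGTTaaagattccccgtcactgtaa
The windows held 3 cores in AT4G37490, 4 in AT5G06150, 3 in AT3G11520, 0 in AT2G26760 and 6 in *KRP1*. Of the other genes, AT1G20930, AT4G34160 and *KNOLLE* held 1 each, and AT3G54180 and AT1G76540 held 0. Over 27443 windows of the same length, 23.4% held at least 1 core on either strand and 4.53% held at least 2. The core of the ABA-responsive element, ACGTG or its reverse complement CACGT, was in 25.6% of windows. AT1G76540, AT1G20930 and *KNOLLE* held 1 match each, *KRP1* held 2 that overlap each other as cacgtg, at 97 and 96 bases upstream, and the 4 B1-type cyclins, AT3G54180 and AT4G34160 held 0. These letters are a description of the windows and show neither binding nor control.

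Library totals ran from 6616931 to 29798437 counted reads. *NUP85* itself, in CPM (reads scaled to library size with TMM factors over the 12 libraries), had 31.3, 29.1 and 16.1 CPM in replicates 1 to 3 of Col-0 mock and 40.0, 41.5 and 29.3 CPM in Col-0 ABA. The libraries labelled *nup85-1* had 3.54, 1.73 and 27.5 CPM under mock and 3.20, 1.98 and 17.0 CPM after ABA. Replicate 3 labelled *nup85-1* thus goes against its label under mock, and after ABA it lies above Col-0 mock replicate 3 and far above replicates 1 and 2 of its own group. Replicate 3 also stood apart in *LHY*, a clock gene that peaks around dawn, with 346 and 313 CPM in the mock libraries of Col-0 and *nup85-1* against 5.31 to 9.86 CPM in the other 4 mock libraries. After ABA it had 6.74 and 8.67 CPM against 0.803 to 1.04 CPM, and the part of this difference in the results was not tested. Counts of called genes are therefore given for all 3 replicates and for replicates 1 and 2, values of single genes are from all 3 replicates and are given for replicates 1 and 2 where the call changes, and directions between genotypes refer to the libraries as labelled. The ABA-induced genes *RD29A*, *RD29B*, *ABI5* and *COR47* rose in Col-0 with log2 fold changes of 4.69, 4.60, 3.46 and 3.42. In the libraries labelled *nup85-1*, *RD29A*, *COR47* and *ABI5* rose by 4.57, 3.81 and 3.40, and *RD29B* had a log2 fold change of 3.15 with an adjusted p of 0.0786 (edgeR), or 6.24 with replicates 1 and 2 (edgeR adjusted p = 2.82e-06).

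All 10 genes were counted in every library, from 45 reads for AT3G11520 in *nup85-1* ABA replicate 1 to 1468 reads for *KNOLLE* in Col-0 ABA replicate 1, and all passed the filter on low counts in every comparison. Levels of different genes were compared as CPM per kilobase of exon. In Col-0 mock, *KNOLLE* had the highest mean level, 38.4 CPM per kilobase (27.4 to 50.4), followed by *KRP1* at 23.4 (18.6 to 27.1), AT4G34160 at 23.4 (19.9 to 25.2), AT1G76540 at 16 (12 to 19.3), AT5G06150 at 13.3 (10.2 to 15.2) and AT1G20930 at 10.4 (8.44 to 11.7). AT3G54180 followed at 8.02 (6.43 to 9.92), then AT2G26760 at 7.46 (6.25 to 8.42), AT4G37490 at 5.46 (4.32 to 6.77) and AT3G11520 at 5.05 (4.17 to 5.77). Neighbours in this order overlapped in their 3 libraries except *KNOLLE* with *KRP1* and AT4G34160 with AT1G76540. AT5G06150 was the most abundant B1-type cyclin in each of the 4 groups, and in *nup85-1* mock *KRP1* had a higher mean (36.4 CPM per kilobase) than *KNOLLE* (34.8), with overlapping libraries.

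**Figure D1:**
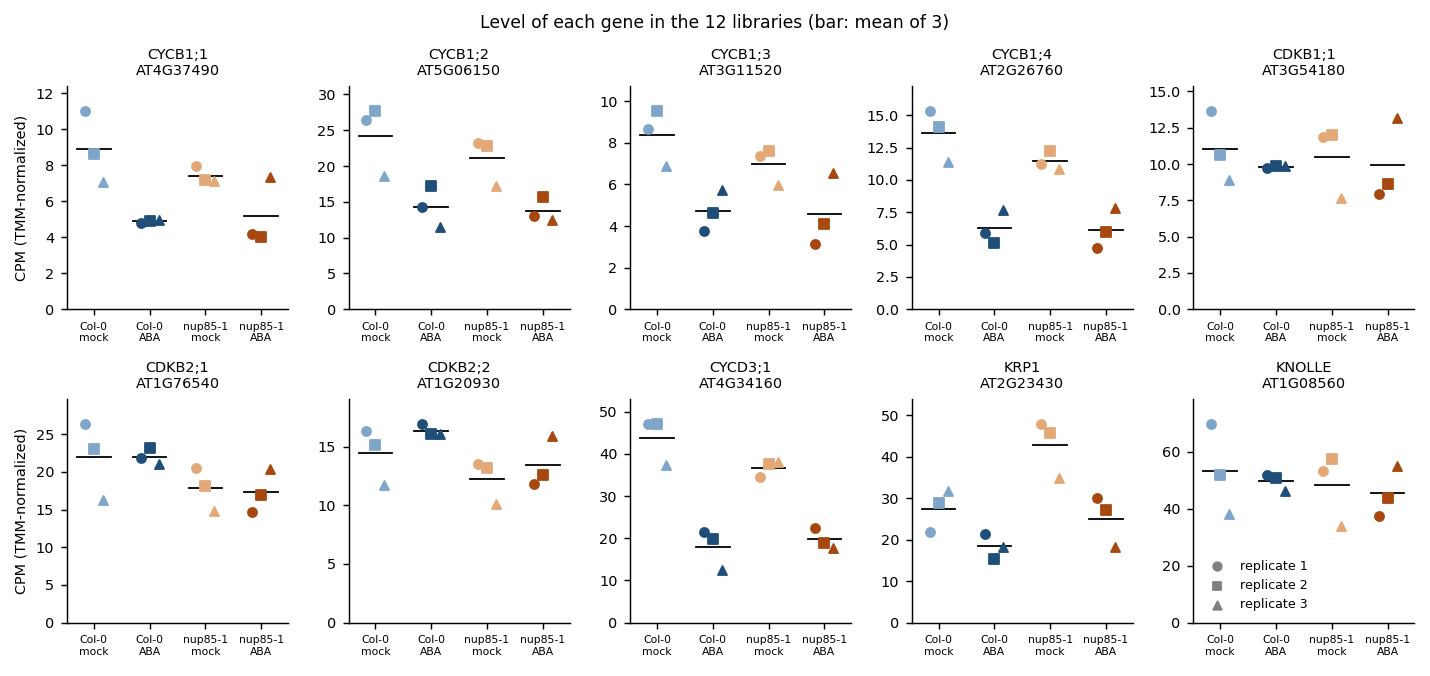
CPM (TMM-normalized, linear axis from 0) of each of the 10 genes in the 12 libraries, with a marker for each replicate number and a bar at the mean of 3. In Col-0 the ABA libraries of the 4 *CYCB1* genes, AT4G34160 and *KRP1* all lie below the mock libraries, and those of the *CDKB* genes and *KNOLLE* overlap with mock. The share of all genes that separate in this way was not counted.

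The first question was how the 10 genes responded to ABA in Col-0. All 4 B1-type cyclins and AT4G34160 fell, to between 41.5% and 59.7% of the mock level, whereas the 3 *CDKB* genes and *KNOLLE* had estimates between 89.6% and 115% of it and were not called. With edgeR's quasi-likelihood test and an adjusted p under 0.05, 5 of 10 genes were called lower and 0 higher, beside 14.9% of 20062 genes tested called lower and 16.5% called higher. The median log2 fold change was -0.66 over the 10 genes and -0.01 over all genes. Replicates 1 and 2 alone called the same 5 genes, beside 23.2% of all genes lower and 24.0% higher. The count depended on single libraries: it was 1 without Col-0 mock replicate 1 or without Col-0 ABA replicate 1, and 2 without replicate 2 of either group. Calls over all genes also fell in these fits. They went from 6299 of 20062 genes to 3522 and 3484 without replicate 1 of mock or ABA, and to 4886 and 3584 without replicate 2. None of the 5 reached the 4-fold limit that the study set for ABA-responsive genes. Few of all genes did: of 20062 tested, 688 were called lower and 814 higher at that limit.

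The B1-type cyclins responded with similar sizes. *CYCB1;1* (AT4G37490), which is also known as a DNA damage-induced cyclin, had 11, 8.64 and 7.04 CPM in Col-0 mock and 4.81, 4.93 and 4.94 CPM after ABA. The groups did not overlap and the ABA libraries were nearly equal. How many of all genes separate in this way after ABA was not counted. ABA left 55.5% of the mock level, a log2 fold change of -0.85 (SE 0.23, n = 3 and 3, edgeR adjusted p = 0.0296). *CYCB1;2* (AT5G06150) had 26.4, 27.8 and 18.6 CPM in mock and 14.3, 17.2 and 11.5 CPM after ABA, with replicate 3 lowest in both groups. Its log2 fold change was -0.75 (SE 0.23, edgeR adjusted p = 0.0460). Of its windows of 70 bases, 5.10% also match elsewhere in the genome, and 0 do in the other 9 genes. *CYCB1;3* (AT3G11520) had 8.65, 9.55 and 6.90 CPM in mock and 3.78, 4.63 and 5.75 CPM after ABA, and its log2 fold change was -0.81 (SE 0.24, edgeR adjusted p = 0.0437). *CYCB1;4* (AT2G26760), whose window above holds no MSA core, had 15.4, 14.1 and 11.4 CPM in mock and 5.90, 5.15 and 7.70 CPM after ABA. It showed the lowest value of the 4, a log2 fold change of -1.10 (SE 0.23, edgeR adjusted p = 0.0122), or 46.5% of mock. The 95% intervals of the 4 genes overlap, from -1.64 to -0.57 for AT2G26760 and from -1.29 to -0.21 for AT5G06150.

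*CYCD3;1* (AT4G34160) had 47.1, 47.0 and 37.3 CPM in Col-0 mock and 21.6, 19.9 and 12.5 CPM after ABA. Every ABA library lay below every mock library. Its log2 fold change was -1.27 (SE 0.24, 95% interval -1.84 to -0.70, edgeR adjusted p = 0.00962), or 41.5% of mock. It was the only one of the 10 genes called in both genotypes under every alternative fit, without a fold limit. The neighbouring gene AT4G34150, on the same strand, shares 2.13% of its exon bases and moved the other way, from 27.6 to 40.6 CPM in Col-0 mock to between 53.0 and 93.5 CPM after ABA.

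The inhibitor *KRP1*, whose transcript has been described as ABA-inducible in earlier work, had 21.8, 28.8 and 31.8 CPM in Col-0 mock and 21.4, 15.5 and 18.2 CPM after ABA. All ABA libraries lay below all mock libraries, though mock replicate 1 and ABA replicate 1 were close. The log2 fold change of -0.57 (SE 0.20, 95% interval -1.05 to -0.08, n = 3 and 3) was not called (edgeR adjusted p = 0.0746). The range of adjusted p over the alternative fits was 0.0392 to 0.228, and upper-quartile scaling alone called it.

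The *CDKB* genes and *KNOLLE* had no called difference in Col-0. *CDKB1;1* (AT3G54180) had 13.7, 10.6 and 8.87 CPM in mock and 9.76, 9.85 and 9.84 CPM after ABA. Its mock libraries lay on both sides of the ABA libraries, with a log2 fold change of -0.16 (95% interval -0.65 to 0.33). *CDKB2;1* (AT1G76540) had 26.4, 23.1 and 16.3 CPM in mock and 21.8, 23.2 and 21.1 CPM after ABA, and a log2 fold change of 0.02 (95% interval -0.45 to 0.50). *CDKB2;2* (AT1G20930) had 16.3, 15.2 and 11.8 CPM in mock and 16.9, 16.1 and 16.1 CPM after ABA, and a log2 fold change of 0.20 (95% interval -0.22 to 0.61). *KNOLLE* had 69.8, 51.9 and 38.0 CPM in mock and 51.9, 50.9 and 46.1 CPM after ABA, and a log2 fold change of -0.09 (95% interval -0.64 to 0.47). In each of these 4 genes the mock libraries spread widely, with replicate 3 lowest, and the ABA libraries lay close together. The intervals include falls as well as rises, so the missing calls do not show that these genes were unaffected.

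The counts of these 4 genes carry an uncertainty that those of the cyclins mostly lack. A neighbouring gene on the opposite strand shares 5.15% of the exon bases of AT3G54180, 3.22% of AT1G76540, 13.8% of AT1G20930 and 33.5% of *KNOLLE* in TAIR10.1, against 0% in the 4 *CYCB1* genes and *KRP1*. The strand setting of the counting was not given in the sources used here. The overlapping gene of AT1G20930, AT1G20925, had at most 0.184 CPM in any library. That of AT1G76540, AT1G76530, had 1.21 to 3.10 CPM in Col-0 mock and 0.0746 to 0.258 CPM after ABA. AT3G54190, beside AT3G54180, had 42.8 to 59.7 CPM in Col-0 mock and 47.6 to 61.6 CPM after ABA. AT1G08550, beside *KNOLLE*, had 28.5 to 128 CPM in mock and 78.3 to 98.1 CPM after ABA, and the part of its reads in the *KNOLLE* counts was not tested.

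**Figure D2:**
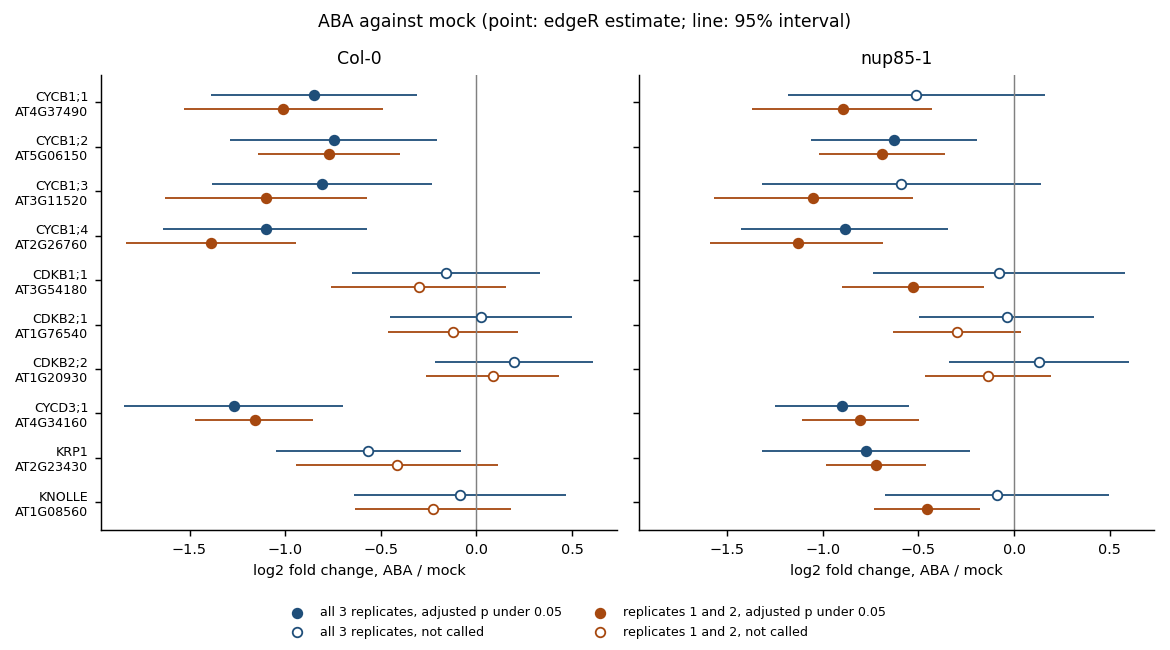
Log2 fold change of ABA over mock for the 10 genes in Col-0 (left) and in the libraries labelled *nup85-1* (right), with 95% intervals, for all 3 replicates and for replicates 1 and 2, and filled points have an adjusted p under 0.05. The 4 *CYCB1* genes and AT4G34160 lie to the left in both panels, and AT1G76540 and AT1G20930 have intervals that include 0 in both.

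The second comparison was the same treatment in the libraries labelled *nup85-1*. AT5G06150, AT2G26760, AT4G34160 and *KRP1* fell, to between 53.7% and 64.8% of the mock level. These are 4 of 10 genes called lower and 0 higher, beside 13.8% of 20001 genes tested called lower and 15.4% called higher, with a median log2 fold change of -0.55 over the 10 genes. With replicates 1 and 2 the count was 8 of 10, all lower, beside 25.9% of all genes lower and 25.6% higher. AT4G37490, AT3G11520, AT3G54180 and *KNOLLE* were the genes added. The count of 4 fell to 1, AT4G34160, without replicate 1 or without replicate 2 of either group. Calls over all genes fell from 5838 to between 3182 and 4072 in these fits.

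AT4G34160 had 34.5, 37.6 and 38.1 CPM in *nup85-1* mock and 22.5, 19.0 and 17.8 CPM after ABA, with no overlap and a log2 fold change of -0.90 (SE 0.15, edgeR adjusted p = 0.00595). AT2G26760 had 11.2, 12.3 and 10.8 CPM in mock and 4.73, 5.93 and 7.83 CPM after ABA, with a log2 fold change of -0.89 (SE 0.23, edgeR adjusted p = 0.0273). AT5G06150 had 23.3, 22.8 and 17.3 CPM in mock and 13.0, 15.6 and 12.4 CPM after ABA, with a log2 fold change of -0.63 (SE 0.18, edgeR adjusted p = 0.0406). In these 3 cyclin genes every ABA library lay below every mock library. The share of all genes that separate so in *nup85-1* was not counted. *KRP1* had 47.9, 45.7 and 34.8 CPM in mock and 30.04, 27.1 and 18.2 CPM after ABA, again without overlap, and a log2 fold change of -0.77 (SE 0.23, edgeR adjusted p = 0.0433).

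In AT4G37490 and AT3G11520 replicate 3 decided the call. AT4G37490 had 7.94, 7.20 and 7.10 CPM in *nup85-1* mock and 4.17, 4.02 and 7.36 CPM after ABA, so that ABA replicate 3 lay among the mock libraries. Its log2 fold change was -0.51 (edgeR adjusted p = 0.216) with all 3 replicates and -0.90 (SE 0.20, edgeR adjusted p = 0.00714) with replicates 1 and 2. AT3G11520 had 7.37, 7.60 and 5.95 CPM in mock and 3.13, 4.08 and 6.57 CPM after ABA. It moved from -0.59 (edgeR adjusted p = 0.193) to -1.05 (SE 0.23, edgeR adjusted p = 0.00548) in the same way.

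AT3G54180 and *KNOLLE* were called only with replicate 3 left out of both groups, and neither *CDKB2* gene was called in any fit. AT3G54180 had 11.9, 11.99 and 7.67 CPM in *nup85-1* mock and 7.93, 8.65 and 13.1 CPM after ABA. Replicate 3 was the lowest mock library and the highest ABA library. The log2 fold change was -0.08 (95% interval -0.74 to 0.58) with all 3 replicates and -0.53 (SE 0.16, edgeR adjusted p = 0.0250) with replicates 1 and 2. *KNOLLE* had 53.4, 57.4 and 33.9 CPM in mock and 37.3, 43.8 and 55.0 CPM after ABA, which gave -0.09 (95% interval -0.68 to 0.50) and, with replicates 1 and 2, -0.46 (SE 0.12, edgeR adjusted p = 0.0138). AT1G76540 had 20.6, 18.1 and 14.8 CPM in mock and 14.7, 16.9 and 20.4 CPM after ABA, with log2 fold changes of -0.04 and, for replicates 1 and 2, -0.30 (edgeR adjusted p = 0.118). AT1G20930 had 13.5, 13.2 and 10.11 CPM in mock and 11.8, 12.6 and 15.9 CPM after ABA, with log2 fold changes of 0.13 and -0.14 (edgeR adjusted p = 0.449).

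The balance between B1-type cyclin and kinase transcripts was described within each library, a ratio that needs no scaling between libraries and that was chosen after the values had been seen. Summed reads of the 4 *CYCB1* genes over those of the 3 *CDKB* genes gave 1.09, 1.23 and 1.19 in Col-0 mock and 0.593, 0.649 and 0.636 in Col-0 ABA. The libraries labelled *nup85-1* gave 1.08, 1.15 and 1.26 under mock and 0.726, 0.778 and 0.691 after ABA. All 6 mock libraries lay above 1 and all 6 ABA libraries below it, replicate 3 included. Against *KNOLLE*, the same cyclin reads gave 0.880, 1.16 and 1.16 in Col-0 mock and 0.554, 0.626 and 0.648 after ABA. The corresponding ratios in the libraries labelled *nup85-1* were 0.932, 0.868 and 1.21 under mock and 0.672, 0.678 and 0.621 after ABA. These ratios use the same counts as the calls above, so they restate those values and are not separate evidence. No test compared the responses of cyclin and kinase transcripts. The ratios do not show that either kind of transcript stayed constant.

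**Figure D3:**
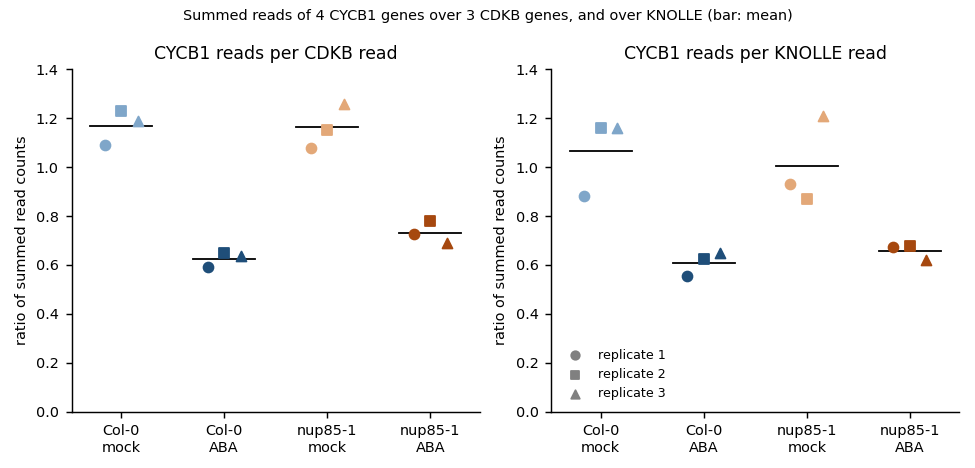
Ratio of summed read counts of 4 *CYCB1* genes to those of 3 *CDKB* genes (left) and to *KNOLLE* (right) in each of the 12 libraries, on linear axes from 0, with bars at the mean. Against the *CDKB* genes, the mock libraries lie between 1.08 and 1.26 and the ABA libraries between 0.593 and 0.778.

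Other genes of the cell cycle were counted from lists of 84 genes, also chosen with earlier results of these data known. In Col-0, 28 of the 79 tested fell and 3 rose, with a median log2 fold change of -0.57, beside 14.9% of all genes lower and 16.5% higher. In the libraries labelled *nup85-1*, 27 of 79 fell and 4 rose, with a median of -0.43, beside 13.8% of all genes lower and 15.4% higher. With replicates 1 and 2, 38 of 81 fell and 7 rose in Col-0, and 40 of 80 fell and 8 rose in *nup85-1*, beside 23.2% to 25.9% of all genes in each direction. The S phase and DNA replication list had the most calls: 12 of 16 genes fell in Col-0 (median -0.98) and 11 of 16 in *nup85-1* (median -0.88), and 0 rose in either, and replicates 1 and 2 gave 13 and 14 of 16. *TSO2*, which encodes a small subunit of ribonucleotide reductase, fell with a log2 fold change of -2.51 in Col-0 (edgeR adjusted p = 0.00213) and -2.11 in *nup85-1* (edgeR adjusted p = 0.00210). With all 3 replicates it was the only listed cell cycle gene past the 4-fold limit. With replicates 1 and 2 its log2 fold change was -2.18 in Col-0 and, short of the limit, -1.78 in *nup85-1*, where the inhibitor gene *SMR5*, named here after its values were seen, passed it with a rise of 2.18 (edgeR adjusted p = 0.0102). A gene on the opposite strand, AT1G07510, shares 100% of the exon bases of *SMR5*. The strand setting is not known, so the *SMR5* reads may come from that gene, which was not tested. *MCM3*, a subunit of the replicative helicase, had log2 fold changes of -1.27 and -1.10 in Col-0 and *nup85-1*. *PCNA1*, the sliding clamp of DNA polymerase, had -1.11 and -1.19, and the licensing factor gene *CDT1B* had -1.51 and -0.92.

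Among the other A- and B-type cyclins with the remaining *CDKB1* gene, 5 of 14 fell in Col-0 and 5 of 15 in *nup85-1*, and 0 rose. The libraries of replicates 1 and 2 had 9 of 15 lower in each genotype and 2 higher in Col-0. Of all genes, 14.9% were lower in Col-0 and 13.8% in *nup85-1*, or 23.2% and 25.9% with replicates 1 and 2. In Col-0 and *nup85-1* the log2 fold changes were -1.59 and -1.26 for *CYCA1;1*, -1.54 and -1.41 for *CYCA3;1* and -1.06 and -0.82 for *CYCA3;4*, all called. *CYCB3;1* fell in *nup85-1* (-0.86) and had -0.76 in Col-0 (edgeR adjusted p = 0.121), or -1.16 with replicates 1 and 2 (edgeR adjusted p = 0.0188). Of the other D-type cyclins with the A-type kinase, 4 of 9 fell in Col-0 and 2 of 9 in *nup85-1*, or 5 and 4 with replicates 1 and 2. *CYCD1;1* fell in both (-1.92 and -1.73), as did *CYCD6;1*, which acts in root patterning (-1.72 and -1.08). *CYCD4;2* fell in Col-0 (-0.79) and had -0.72 in *nup85-1* (edgeR adjusted p = 0.0746), or -0.88 with replicates 1 and 2 (edgeR adjusted p = 0.0277). Of the other inhibitors with the mitosis-delaying kinase gene *WEE1*, 3 of 12 fell in Col-0 and 3 of 11 in *nup85-1*, and 0 rose. In replicates 1 and 2, 3 fell and 1 rose of 13 in Col-0, and 3 fell and 2 rose of 12 in *nup85-1*. With replicates 1 and 2 the lower shares of this list are near those of all genes, and the higher shares are below the 24.0% and 25.6% of all genes. The genes of this list that fell with all 3 replicates were *SMR1*, of the SIAMESE-related family (log2 fold changes of -1.88 and -1.72), *KRP7* (-1.23 and -1.14) and *WEE1* (-0.995 and -1.20). Opposite-strand genes share 40.3% of the exon bases of *SMR1* and 24.4% of those of the root patterning cyclin.

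Of 12 cytokinesis genes, 2 fell and 2 rose in Col-0, a share near that of all genes in both directions, and 5 fell and 2 rose in *nup85-1*. The counts from replicates 1 and 2 were 5 lower in Col-0, 7 lower in *nup85-1* and 2 higher in each. *HINKEL*, a kinesin of the phragmoplast, had log2 fold changes of -1.29 and -0.94, and *MAP65-3*, which crosslinks its microtubules, had -0.89 and -0.81, all called. *POK2*, a kinesin that guides the division plane, fell in *nup85-1* (-1.13) and had -0.95 in Col-0 (edgeR adjusted p = 0.0819), or -1.02 with replicates 1 and 2 (edgeR adjusted p = 0.00768). The genes that rose were partners of KNOLLE in membrane fusion: *SNAP33* rose by 0.76 in Col-0 (edgeR adjusted p = 0.00841) and 0.94 in *nup85-1*, and *KEULE*, named here after its values were seen, by 0.66 and 0.56. Both also act in secretion outside division.

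Of 11 genes of the anaphase-promoting complex and the MYB3R family, 1 fell in Col-0 and 1 fell and 1 rose in *nup85-1*, whereas replicates 1 and 2 gave 2 lower and 1 higher in Col-0 and 2 lower and 2 higher in *nup85-1*, and these shares are below those of all genes. *MYB3R4*, an activator that binds MSA elements, fell in both, with log2 fold changes of -0.98 and -1.01. *MYB3R5*, which encodes a repressor of the same family, rose by 0.75 in *nup85-1* (edgeR adjusted p = 0.0400) and had 0.60 in Col-0 (edgeR adjusted p = 0.0745). Of 5 E2F and RBR genes, the atypical repressor *DEL1* fell (-1.20) and the activator *E2FB* rose (0.71) in Col-0, and the repressor *E2FC* rose (0.66) in *nup85-1*. This list is too short to set against the shares of all genes. The values in the other genotype were -0.82 for *DEL1*, 0.45 for *E2FB* and 0.26 for *E2FC*, with edgeR adjusted p of 0.0807, 0.192 and 0.272. With replicates 1 and 2, *DEL1* (-1.18) and *E2FB* (0.66) were also called in *nup85-1*.

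**Figure D4:**
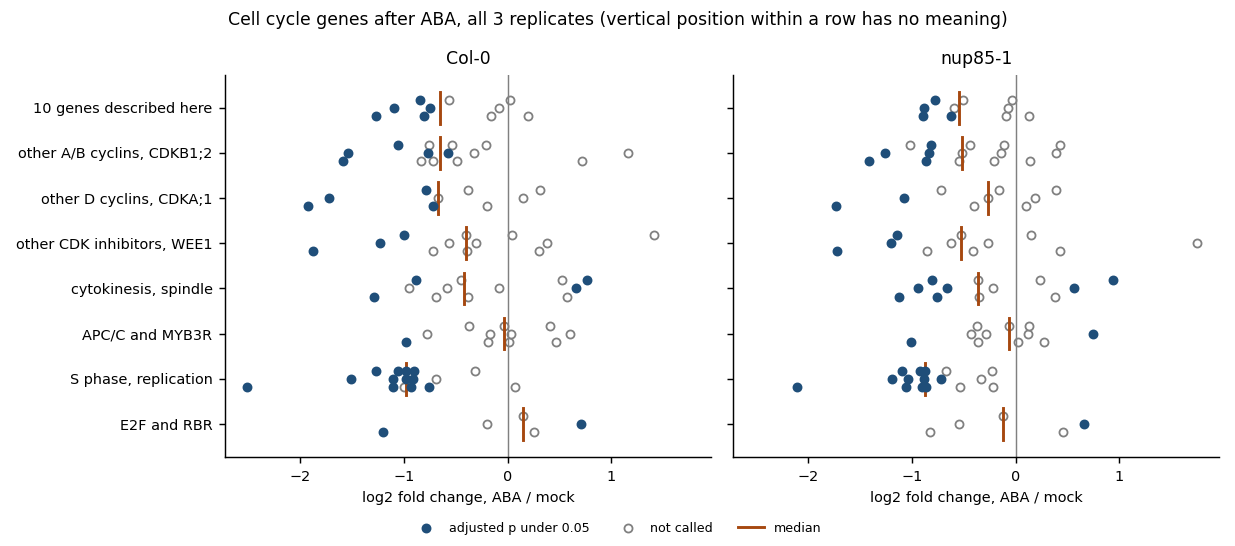
Log2 fold change of ABA over mock for each tested gene of 8 lists in Col-0 (left) and in the libraries labelled *nup85-1* (right), all 3 replicates, and filled points have an adjusted p under 0.05 and vertical marks are list medians. The S phase list has its median at -0.98 in Col-0 and -0.88 in *nup85-1*.

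Marker genes listed for meristem, root and leaf were counted in the same way, and how well they track dividing cells was not tested. Of all genes, 14.9% were called lower in Col-0 and 13.8% in *nup85-1*, or 23.2% and 25.9% with replicates 1 and 2. Of 10 meristem markers, 7 were tested in Col-0 and 5 fell, and 6 were tested in *nup85-1* and 3 fell (4 and 3 with replicates 1 and 2). Their summed level was 95.9 to 102 CPM in Col-0 mock and 39.8 to 55.4 CPM after ABA, and 84.5 to 119.5 CPM in *nup85-1* mock and 43.4 to 53.5 CPM after ABA. *WUS* was at 0 in all 12 libraries and *CLV3* in 11 of 12, so the sum rests on *SCR*, *ANT*, *SHR*, *KNAT1* and *STM*. In Col-0 and *nup85-1* the log2 fold changes were -1.45 and -1.37 for *SHR*, -1.07 and -0.86 for *ANT* and -1.05 and -1.54 for *KNAT1*, all called. *WOX5*, a marker of the root stem cell niche, had the opposite sign, with 0.59 (edgeR adjusted p = 0.323) and 1.41 (edgeR adjusted p = 0.0725), and at most 1.68 CPM in any library. Of 3 root markers 0 were called in either genotype by edgeR with all 3 replicates (2 in Col-0 and 3 in *nup85-1* with replicates 1 and 2, all lower), and their sum was 10.8 to 26.1 CPM in Col-0 mock and 4.17 to 24.5 CPM after ABA, with replicate 3 highest after ABA. Of 3 leaf markers 1 fell in each genotype (2 in Col-0 and 3 in *nup85-1* with replicates 1 and 2), *LHCB2.1*, a gene with close paralogs (-3.67 and -2.94), and the leaf sum was 10140 to 17260 CPM in Col-0 mock and 5342 to 13700 CPM after ABA. The part of these marker values in the cyclin results was not tested.

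The third comparison was between genotypes. Between the mock groups, 0 of 10 genes were called. *KRP1* was the only one of the 10 genes whose mock libraries labelled *nup85-1* all lay above Col-0. The share of all genes that separate in this way was not counted. Under mock, edgeR called 0% of 19606 genes with all 3 replicates, 1010 genes had an unadjusted p under 0.05, and DESeq2 called 35. Replicates 1 and 2 called 0.0155% of all genes and 0 of the 10. *KRP1*, with 21.8, 28.8 and 31.8 CPM in Col-0 and 47.9, 45.7 and 34.8 CPM in *nup85-1*, had a log2 fold change of 0.63 (SE 0.20, 95% interval 0.16 to 1.11, n = 3 and 3, edgeR adjusted p = 0.937), or 155% of the Col-0 level. With replicates 1 and 2 it was 0.90 (SE 0.17, edgeR adjusted p = 0.166), and replicate 3, whose *NUP85* level goes against its label, showed the smallest gap. The other 9 genes had log2 fold changes from -0.30 for AT1G76540 to -0.08 for AT3G54180, all with intervals that include 0. Those intervals come from the fit without pairs. In both *CDKB2* genes, AT5G06150, AT3G11520 and AT2G26760 the *nup85-1* library was the lower one in all 3 same-numbered pairs. The differences in AT1G20930 were -0.27, -0.19 and -0.21 on the log2 scale. How many of all genes keep the same sign in all 3 pairs was not counted. With the replicate as a block 0 of the 10 were called, and the edgeR adjusted p was 0.184 for *KRP1* and 0.313 to 0.807 for the other 9.

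After ABA, 0 of 10 genes were called between genotypes, and edgeR called 0% of 20270 genes, with 995 at an unadjusted p under 0.05 and 98 called by DESeq2. Replicates 1 and 2 called 3.14% of all genes and 0 of the 10. With the replicate as a block, edgeR called 279 of 20270 genes and 0 of the 10. The SE, intervals and adjusted p given next come from fits without pairs. The libraries labelled *nup85-1* all lay below Col-0 for both *CDKB2* genes, and the share of all genes that separate in this way was not counted. In replicate 3 the difference was small, -0.048 for AT1G76540 and -0.016 for AT1G20930 on the log2 scale. AT1G76540 had 21.8, 23.2 and 21.1 CPM in Col-0 and 14.7, 16.9 and 20.4 CPM in *nup85-1*, a log2 fold change of -0.35 (SE 0.15, 95% interval -0.72 to 0.02, edgeR adjusted p = 1.00). Replicates 1 and 2 gave -0.50 (SE 0.12, edgeR adjusted p = 0.0840). AT1G20930 had -0.29 (95% interval -0.66 to 0.09) and, with replicates 1 and 2, -0.44 (edgeR adjusted p = 0.110). *KRP1* had 21.4, 15.5 and 18.2 CPM in Col-0 against 30.04, 27.1 and 18.2 CPM in *nup85-1*, so the groups overlapped, and its log2 fold change of 0.45 had an interval from -0.12 to 1.02. The 4 *CYCB1* genes had values from -0.06 to 0.08, and their intervals reached from -0.80 to 0.73. Of the other cell cycle genes, 0 of 78 tested were called under mock and 0 of 80 after ABA, also with replicates 1 and 2.

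**Figure D5:**
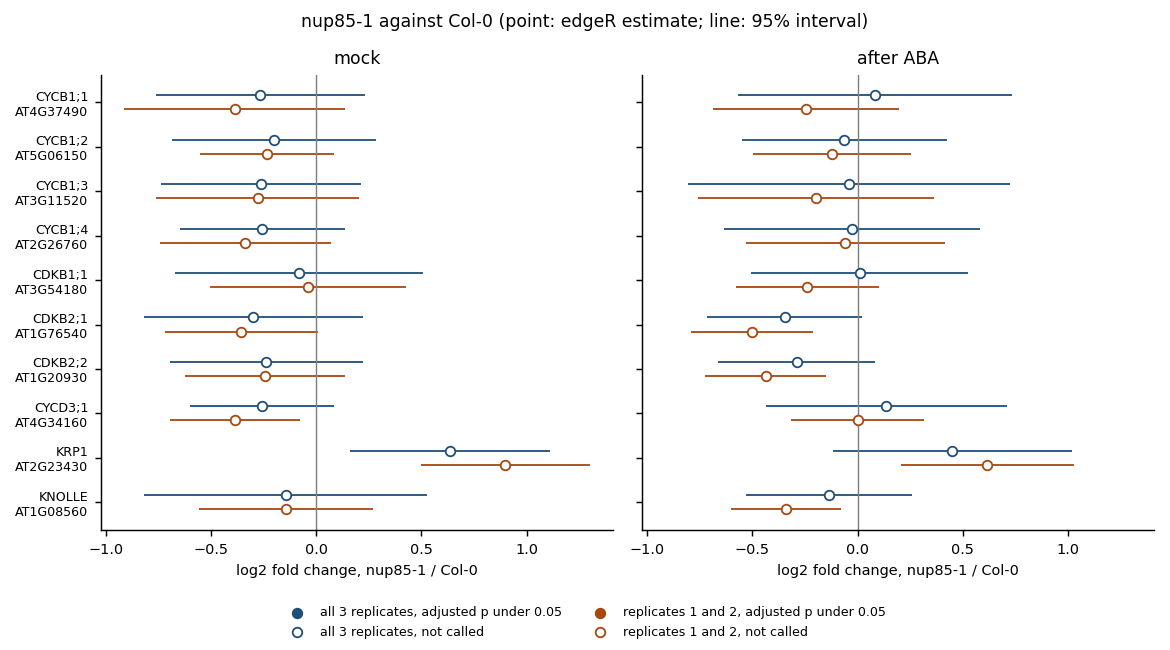
Log2 fold change of the libraries labelled *nup85-1* over Col-0 for the 10 genes under mock (left) and after ABA (right), with 95% intervals, for all 3 replicates and for replicates 1 and 2, and open points were not called. *KRP1* lies to the right under mock, at 0.63 and 0.90, and none of the points is filled.

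Whether ABA acted differently in the 2 genotypes was tested by an interaction term over the 12 libraries. It called 0 of 10 genes and 0% of 20574 genes with all 3 replicates, 309 genes had an unadjusted p under 0.05, and DESeq2 called 1. Replicates 1 and 2 called 0 of the 10 and 0.00976% of all genes. The estimate farthest from 0 was that of AT4G34160, whose fall was 0.39 smaller on the log2 scale in *nup85-1* (SE 0.28, 95% interval -0.23 to 1.01). AT4G37490 had 0.35 (95% interval -0.43 to 1.14) and *KRP1* -0.19 (95% interval -0.89 to 0.51). The intervals are wide, so the genes called in one genotype and not in the other are not shown to differ.

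Over the 12 libraries, each gene's log2 CPM was set against the mean of the other 9 after standardizing each gene. The B1-type cyclins lay closest to that mean, with Pearson's r of 0.868 for AT4G37490, 0.847 for AT3G11520, 0.799 for AT2G26760 and 0.780 for AT5G06150. AT3G54180, *KNOLLE*, AT4G34160 and AT1G76540 followed at 0.742, 0.686, 0.606 and 0.547, and AT1G20930 and *KRP1* were least alike at 0.225 and 0.0977. Outside the 10, the genes most like their mean were AT2G27680 (r = 0.976), *SOL1* (AT3G22760, r = 0.964), AT5G58000 (r = 0.959), AT5G44578 (r = 0.959) and AT5G55520 (r = 0.957), out of 20564 genes. The points share the 4 groups and the 2 treatments. For a B1-type cyclin, the mean of the other 9 also holds the other B1-type cyclins, which favours a high r. These values are therefore a description only.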

How the data were processed

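RNA was isolated from whole seedlings, and per the labels and methods the authors checked reads with FastQC, trimmed them to bases 11 to 80, mapped them to TAIR10 with TopHat2 and counted them per gene with featureCounts. The deposited values are raw read counts for 33602 genes in 12 libraries, without normalization, from 6616931 to 29798437 per library, and plastid and mitochondrial genes took 0.0628% to 3.75%. Strand setting and annotation version were not given in the sources used here.

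Each comparison was fitted on its own libraries with edgeR 4.0.16 (R 4.3.3) by the quasi-likelihood test after filterByExpr and TMM normalization, and the interaction on all 12. P-values were adjusted over all genes tested (Benjamini-Hochberg), with calls at adjusted p under 0.05. SE and 95% intervals come from the F statistic. The fits of ABA in Col-0 and of the interaction were also run on simulated counts with 200 changed genes. These counts held no effect of replicate number, so that run does not show how the fits handle replicate 3. DESeq2 1.42.0, other scalings, filters, the replicate block and left-out libraries were alternatives. Levels are CPM. Same-numbered libraries of the 2 genotypes deviated together from their group means (r from 0.517 to 0.783 over 3 pairs in each genotype comparison). The best r with a library of another number in the other genotype was 0.316 to 0.508 for replicates 1 and 2. For replicate 3 it was -0.593 and -0.598. An outlying replicate 3 shifts the group means, which makes replicates 1 and 2 deviate together whatever their number. This check thus cannot decide whether numbers 1 and 2 pair samples, and the labels do not say so. Gene positions, overlaps and upstream windows were looked up by locus tag in RefSeq's TAIR10.1. The genes named beside the 10 are, per list and ABA comparison, up to 3 called genes with the largest fold change, the check genes, and the 5 genes most alike. The 10 genes and the lists were chosen with earlier results of these data known.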

Additional observations from a re-analysis of the deposited data

How the results depend on the processing

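Counts of the 10 genes called in the ABA comparisons depended on the fit. In Col-0 the count was 5 and became 3 with the replicate block (AT5G06150, AT2G26760 and AT4G34160), 3 without a filter on low counts, 0 with the study's fold limit, and 1 to 5 when 1 library was left out. In *nup85-1* it was 4 and became 8 with replicates 1 and 2 only, 0 with the fold limit, and 1 to 5 when 1 library was left out. Over all genes, 6299 were called in Col-0 and 5838 in *nup85-1*. These became 1502 and 1351 with the fold limit. With 1 library left out they ranged from 3484 to 6848 in Col-0 and from 3182 to 7718 in *nup85-1*. The block did not move the count in *nup85-1*, and ABA and mock libraries of the same number did not deviate together in every pair (lowest r of -0.08 in Col-0 and 0.07 in *nup85-1*). In the genotype comparisons and the interaction the count was 0 under every alternative. The block moved the calls over all genes from 0 to 61 under mock and from 0 to 279 after ABA, and changed no call of the 10. Upper-quartile scaling shifted the median of all genes to -0.15 in Col-0 and -0.09 in *nup85-1*, lowered the share of called genes that were higher from 52.5% to 41.2% and from 52.6% to 44.3%, and added *KRP1* in Col-0.

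Directions changed for values near 0, none of them called. With replicates 1 and 2 only, the log2 fold change became -0.12 for AT1G76540 after ABA in Col-0 (-0.11 with upper-quartile scaling), -0.14 for AT1G20930 after ABA in *nup85-1*, -0.25 for AT4G37490 and -0.24 for AT3G54180 between genotypes after ABA (-0.011 for AT3G54180 with the block), and -0.20 for AT3G54180 and -0.20 for *KNOLLE* in the interaction (-0.008 for *KNOLLE* with DESeq2 and -0.009 with RLE scaling). The causes were not tested. When 1 library was left out, the values that changed direction ranged as follows. For ABA in Col-0, -0.30 to 0.032 for AT3G54180, -0.15 to 0.19 for AT1G76540 and -0.28 to 0.17 for *KNOLLE*. For ABA in *nup85-1*, -0.33 to 0.063 for AT3G54180, -0.17 to 0.077 for AT1G76540, -0.005 to 0.22 for AT1G20930 and -0.29 to 0.038 for *KNOLLE*. For the genotypes under mock, -0.22 to 0.11 for AT3G54180 and -0.34 to 0.10 for *KNOLLE*. For the genotypes after ABA, -0.24 to 0.23 for AT4G37490, -0.20 to 0.089 for AT5G06150, -0.37 to 0.16 for AT3G11520, -0.22 to 0.15 for AT2G26760, -0.23 to 0.14 for AT3G54180 and -0.076 to 0.29 for AT4G34160. For the interaction, -0.13 to 0.44 for AT3G11520, -0.17 to 0.24 for AT3G54180, -0.20 to 0.13 for AT1G76540, -0.19 to 0.082 for AT1G20930 and -0.23 to 0.21 for *KNOLLE*.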
